A study of Mus musculus with 12 samples.

Results

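51 genes of cell division were followed in mouse bone marrow (BM) Lin-Sca+Kit+ (LSK) cells, the fraction that is rich in stem and multipotent progenitor cells: genes of mitotic entry, the spindle, the kinetochore, the spindle checkpoint and cytokinesis. They were chosen by function, by symbol, with earlier results of these data known. Each was found under 1 Ensembl identifier among the 56748 genes of the count files. All 51 passed the filter on low counts, and their lowest count in any library was 119. The question was which of these genes differed between LSK cells that expressed BCR::ABL1, the fusion kinase of chronic myeloid leukaemia (CML), and LSK cells that did not.

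Bulk RNA-seq libraries came from 2 groups of 6. All cells of both groups descended from SCLtTA/BCR-ABL double transgenic donors (CD45.2), in which the tetracycline-controlled transactivator is driven by the Scl promoter and human BCR::ABL1 is silent as long as tetracycline (TET) is given. The study's methods describe the donor BM as a frozen pool from mice of both sexes. It was transplanted into irradiated B6.SJL recipients (CD45.1) aged 8 to 12 weeks, and all of them received TET while the graft recovered. CTRL mice stayed on TET ("TET on", normal), and CML mice had TET withdrawn for 2 weeks before CD45.2+ Lin-Sca+Kit+ cells were sorted. The labels give every CTRL sample as male and every CML sample as female, so sex as labelled and BCR::ABL1 cannot be told apart. The human fusion gene was not counted on the mouse genes, so the switch itself could not be read here, and the labels do not say whether each library was 1 mouse, so a p-value measures the spread between libraries.

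A cell enters mitosis when CDK1 bound to cyclin B is released from inhibition by CDC25 phosphatases, and the polo and aurora kinases then build the spindle. Kinetochores tie each chromosome to spindle microtubules, the checkpoint proteins hold back the anaphase-promoting complex (APC/C) until all are attached, and the central spindle then directs the cut between the daughter cells. Most of these genes are transcribed in late S, G2 and M phase. In bone marrow, their mRNA is widely read as a sign of cycling progenitors, since long-term stem cells rarely divide.

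Of the 51 genes, 34 passed the test, 27 as lower and 7 as higher in CML, and 17 did not pass (edgeR quasi-likelihood test over 18438 genes, Benjamini-Hochberg adjusted p under 0.05). Among all genes tested, 59.5% were called, 29.0% as lower and 30.6% as higher, against 66.7%, 52.9% and 13.7% of these 51. The shares of all genes are also the background for every count by role below. The median log2 fold change (CML minus CTRL) was -0.25 over the 51 genes, a 1.19-fold lower level, and 0.067 over all genes. Changes were moderate: only Mki67 and Cdc25b fell by 2-fold or more, and no gene rose by that much. In CPM (counts scaled to the library total, corrected by TMM factors) the groups did not overlap for 24 of the genes that fell and 5 that rose, where 20.6% and 17.0% of all genes were separated in these directions. In bulk libraries, fewer cells in mitosis and less of an mRNA in each such cell cannot be told apart.

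**Figure D1:**
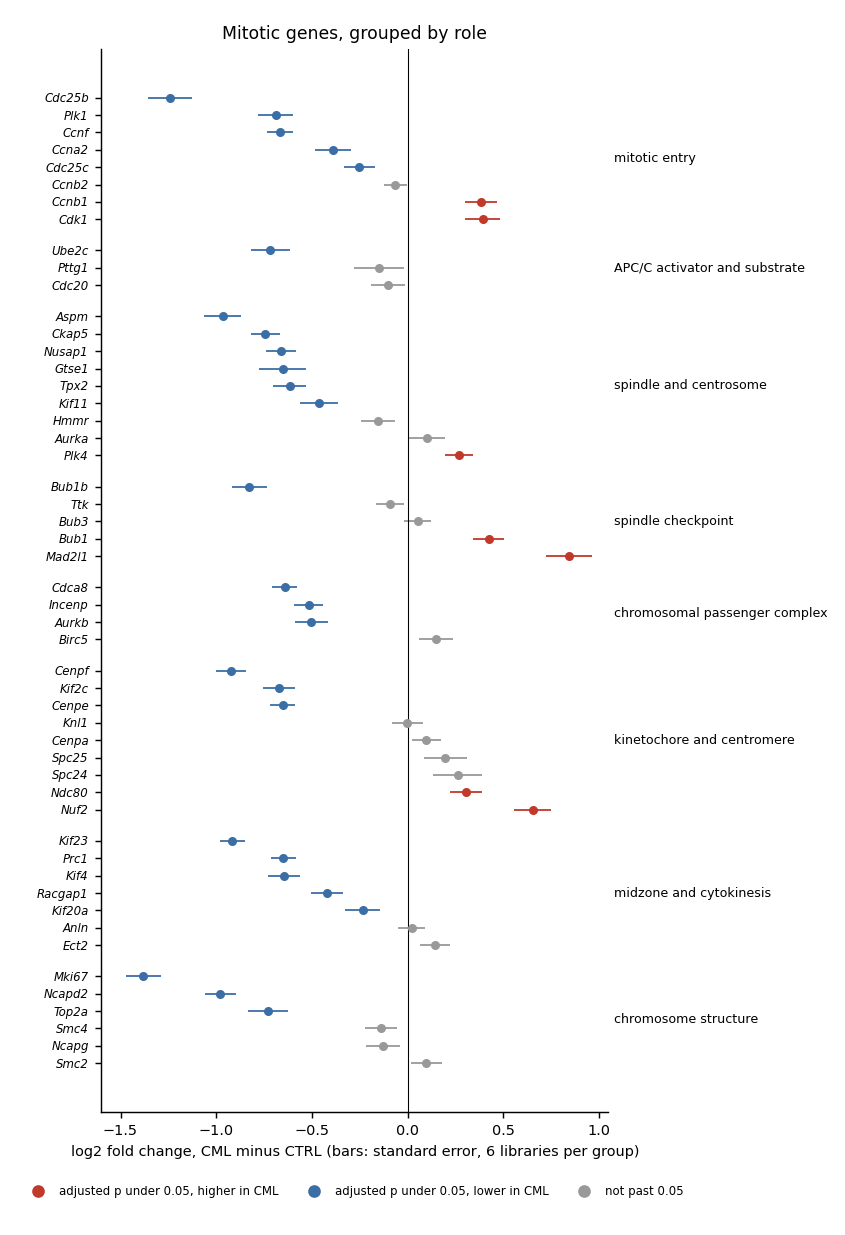
Log2 fold change (CML minus CTRL) with its standard error for each of the 51 genes, grouped by role, 6 libraries per group. Blue points passed the test as lower (27), red points as higher (7) and grey points did not pass (17). Red points appear in mitotic entry, the spindle and centrosome, the checkpoint and the kinetochore, and none in the chromosomal passenger complex, the midzone and cytokinesis or chromosome structure.

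Single libraries were often high or low for many of these genes at once. The mean log2 CPM of the 51 genes was 6.85 to 7.09 in CTRL (median 7.0) and 6.54 to 6.83 in CML (median 6.69), so every CML library lay below every CTRL library. CTRL 2 was the lowest CTRL library for 39 of the genes, and CTRL 3 the highest for 28. Within CML, CML 3 was lowest for 24 genes and CML 2 for 20, while CML 6 was highest for 22. Mki67 and Top2a took 28.0% of the summed CPM of the 51 genes in CTRL and 18.5% in CML.

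Late cell cycle promoters often carry the cell cycle genes homology region (CHR), to which the MuvB complex binds to silence them in resting cells and, with B-MYB and FOXM1, to activate them in G2 and M phase. CCAAT boxes, bound by NF-Y, often lie upstream of it. RefSeq promoter windows (GRCm38.p6, 250 bases before to 50 after the start) were at hand for 43 of the 51 genes, in 47 windows. A CHR (TTTGAA or TTCGAA, both strands) was found in 78.7% of these windows and in 19.2% of all 32851 windows, and a CCAAT box (both strands) in 78.7% and 37.4%. Both lay in 70.2% of the windows of these genes and in 7.52% of all windows. The E2F motif TTNNCGC, each N being C or G (both strands), was in 19.1% against 9.57%, and it can share letters with a CCAAT box read on the other strand.

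By direction, 18 of the 21 fallen genes with a window held a CHR and 19 a CCAAT box, against 3 of 7 risen genes for each, and 13 of 15 genes that did not pass held a CHR. With 7 risen genes this is a description. Mad2l1 and Nuf2, which rose most, had neither. The 250 bases before the start are printed here for the 3 risen and the 3 fallen genes with the largest changes, 5′ to 3′ on the strand of the gene, with CHR, CCAAT and E2F letters in capitals. The other 50 bases were searched but are not printed; those of Bub1 and Cdc25b hold the CHR counted for these genes. In order, the stretches lie at chr6:66534971-66535220 (plus strand), chr1:169531465-169531714 (minus), chr2:127831860-127832109 (minus), chr7:135716380-135716629 (minus), chr2:131186698-131186947 (plus) and chr6:125191587-125191836 (minus).
Mad2l1: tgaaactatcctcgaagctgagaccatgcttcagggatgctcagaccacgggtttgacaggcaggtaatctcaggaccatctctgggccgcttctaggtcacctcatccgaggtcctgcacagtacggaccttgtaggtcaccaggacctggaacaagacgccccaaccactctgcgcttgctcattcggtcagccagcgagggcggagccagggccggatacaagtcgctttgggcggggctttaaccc
Nuf2: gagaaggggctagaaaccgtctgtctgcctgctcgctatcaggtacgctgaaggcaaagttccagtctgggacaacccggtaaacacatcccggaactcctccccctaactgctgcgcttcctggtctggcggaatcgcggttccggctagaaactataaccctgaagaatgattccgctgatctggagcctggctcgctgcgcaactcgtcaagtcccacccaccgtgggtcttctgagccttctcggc
Bub1: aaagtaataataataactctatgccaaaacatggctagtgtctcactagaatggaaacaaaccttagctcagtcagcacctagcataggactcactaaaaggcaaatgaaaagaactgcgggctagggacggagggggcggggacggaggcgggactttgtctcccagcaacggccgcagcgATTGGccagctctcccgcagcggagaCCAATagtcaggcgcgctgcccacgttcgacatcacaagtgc
Mki67: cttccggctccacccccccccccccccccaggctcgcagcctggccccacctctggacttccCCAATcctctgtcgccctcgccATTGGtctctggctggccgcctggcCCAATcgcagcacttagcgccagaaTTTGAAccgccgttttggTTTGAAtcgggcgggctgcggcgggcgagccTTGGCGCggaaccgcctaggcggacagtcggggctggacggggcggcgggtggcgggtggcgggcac
Cdc25b: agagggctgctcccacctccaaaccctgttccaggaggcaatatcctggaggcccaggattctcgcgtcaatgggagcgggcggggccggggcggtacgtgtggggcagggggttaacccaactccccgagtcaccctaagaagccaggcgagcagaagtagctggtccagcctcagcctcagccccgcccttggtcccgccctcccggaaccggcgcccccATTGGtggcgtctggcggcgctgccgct
Ncapd2: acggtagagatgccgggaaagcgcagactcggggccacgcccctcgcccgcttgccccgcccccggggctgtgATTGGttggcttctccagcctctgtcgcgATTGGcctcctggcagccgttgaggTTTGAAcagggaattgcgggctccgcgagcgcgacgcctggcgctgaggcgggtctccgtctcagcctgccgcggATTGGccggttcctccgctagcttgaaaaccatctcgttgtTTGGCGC
In the stretch of Mki67, CHR letters start 116 and 98 bases before the transcription start and CCAAT letters 188, 166 and 141 bases before it. Ncapd2 has a CHR 123 bases before the start, with CCAAT letters 177, 148 and 48 bases before it. Bub1 shows CCAAT letters at 68 and 42 bases, and Cdc25b at 28 bases. A match is a run of letters in the reference and not a measured binding site.

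Chromosome structure held the largest fall and the most abundant transcripts, with 3 of 6 genes lower and 0 higher. Mki67, whose protein Ki-67 coats mitotic chromosomes and is the usual stain for cycling cells, lay at 1436 to 1765 CPM in CTRL (median 1595) and 485 to 718 CPM in CML (median 615). All 6 CML libraries were below the lowest CTRL library, and Mki67 fell 2.61-fold (log2 fold change -1.38 ± 0.091 SE, adjusted p = 4.27e-08). Top2a, the topoisomerase that untangles sister chromatids, measured 1072 to 1333 CPM in CTRL (median 1249) and 590.0 to 907 CPM in CML (median 702); it fell 1.66-fold without overlap, CML 6 and CML 1 being nearest to CTRL (log2 fold change -0.73 ± 0.10 SE, adjusted p = 2.58e-05). Ncapd2, a regulatory subunit of condensin I, measured 445 to 516 CPM in CTRL (median 501) and 200.1 to 281 CPM in CML (median 253), with CML 3 the lowest library, and fell 1.97-fold (log2 fold change -0.98 ± 0.081 SE, adjusted p = 2.06e-07); with the trends of transcript length and GC content removed from every library its log2 fold change was -0.57. The other condensin genes of the set did not pass: Smc2 and Smc4, the ATPase arms shared by both condensins, had log2 fold changes of 0.10 and -0.14 (adjusted p = 0.314 and 0.159), and Ncapg, a further subunit of condensin I, -0.13 (adjusted p = 0.231). With the same trends removed, Smc4 and Ncapg passed as lower (-0.28 and -0.21, adjusted p = 0.0106 and 0.0491). Smc2 did not (-0.038, adjusted p = 0.733). Ncapg shares exon sequence with Lcorl on the opposite strand in the annotation. Of the 51 genes 12 overlap a gene on the opposite strand, and since the strand setting is not given their counts are uncertain. In 8 of them (Ccna2, Cdc20, Nusap1, Cdca8, Kif20a, Kif4, Prc1 and Ncapg) that gene had over 10% of their mean CPM. Another 4 (Ccnf, Ckap5, Top2a and Ncapd2) overlap genes on their own strand, which had at most 0.195% of their mean CPM. Per kilobase of exon, Mki67 was the most abundant of the 51 genes in CTRL (mean 157.7 CPM per kb), whereas in CML it measured 60.5 and Smc4 was the most abundant at 93.0.

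Mitotic entry split, with 5 of 8 genes lower and 2 higher. Cdk1, the kinase that starts mitosis, stood at 116 to 146 CPM in CTRL (median 134) and 138 to 213 CPM in CML (median 176). It rose 1.31-fold (log2 fold change 0.39 ± 0.090 SE, adjusted p = 0.00164), although CML 2 lay inside the CTRL range. Ccnb1, which encodes its main partner cyclin B1, stood at 90.5 to 117 CPM in CTRL (median 107) and 124 to 171 CPM in CML (median 131), did not overlap, and rose 1.31-fold (log2 fold change 0.39 ± 0.084 SE, adjusted p = 0.00112). Its library CML 6 was the highest by a wide gap. Ccnb2, cyclin B2, was the steadiest of the 51 genes across CML libraries, at 88.1 to 108.5 CPM in CTRL (median 94.9) and 87.75 to 101 CPM in CML (median 90.8), and the ranges lay almost on top of each other (log2 fold change -0.063 ± 0.062 SE, adjusted p = 0.394). With length and GC trends removed, however, Ccnb2 passed as lower (log2 fold change -0.35, adjusted p = 0.000876). Both cyclin B genes, like Kif4, have a named pseudogene in the annotation (GENCODE M21), so their counts are uncertain.

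The genes that switch CDK1 on moved the other way. Cdc25b, the phosphatase that removes the inhibitory phosphates from CDK1, stood at 55.1 to 64.25 CPM in CTRL (median 59.2) and 18.1 to 30.1 CPM in CML (median 25.5); it fell 2.36-fold, with CML 3, CML 6 and CML 1 lowest and no overlap (log2 fold change -1.24 ± 0.11 SE, adjusted p = 4.95e-07). Cdc25c, a second such phosphatase, was lower by a small amount (log2 fold change -0.25 ± 0.079 SE, adjusted p = 0.0135) with overlapping groups, and its call was lost with upper-quartile scaling (adjusted p = 0.0576) and without both libraries numbered 6 (0.0665). Plk1, the polo kinase that activates CDC25C and acts through the whole of mitosis, stood at 62.1 to 76.0 CPM in CTRL (median 68.8) and 31.6 to 48.9 CPM in CML (median 43.5), and every CML library was lower, CML 3 most so (1.61-fold lower, log2 fold change -0.69 ± 0.093 SE, adjusted p = 1.74e-05). Ccna2, cyclin A2 of S and G2 phase, fell (log2 fold change -0.39 ± 0.094 SE, adjusted p = 0.00249), with CML 5 just inside the CTRL range. Ccnf, the F-box cyclin that targets proteins for degradation in G2, fell without overlap (log2 fold change -0.67 ± 0.066 SE, adjusted p = 9.44e-07). With length and GC trends removed, the log2 fold change of Ccnf was -0.22 (adjusted p = 0.0283).

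The spindle checkpoint held the largest rise, with 2 of 5 genes higher (40.0%) and 1 lower (20.0%), against 30.6% and 29.0% of all genes. Mad2l1, whose protein MAD2 binds and blocks the APC/C activator CDC20, stood at 112 to 139.5 CPM in CTRL (median 131) and 162 to 299 CPM in CML (median 224). All CML libraries were above CTRL, from CML 2 at the bottom to CML 6 at the top, and Mad2l1 rose 1.80-fold (log2 fold change 0.85 ± 0.12 SE, adjusted p = 2.80e-05). Bub1, the checkpoint kinase that marks the centromere, stood at 86.6 to 103 CPM in CTRL (median 93.9) and 112 to 152 CPM in CML (median 120.3) with CML 6 and CML 1 highest and rose 1.34-fold without overlap (log2 fold change 0.42 ± 0.081 SE, adjusted p = 0.000411). Bub1b, which encodes its relative BUBR1, stood at 169 to 205 CPM in CTRL (median 186) and 81.6 to 127 CPM in CML (median 105) with CML 3 lowest, and fell 1.77-fold without overlap (log2 fold change -0.83 ± 0.092 SE, adjusted p = 2.94e-06). Ttk, the kinase MPS1 that recruits the others, stood at 54.75 to 70.8 CPM in CTRL (median 61.5) and 53.4 to 66.85 CPM in CML (median 56.25), and the ranges overlapped almost fully (log2 fold change -0.090 ± 0.072 SE, adjusted p = 0.294). Bub3, the shared scaffold of BUB1 and BUBR1, had a log2 fold change of 0.053 (adjusted p = 0.536). With length and GC trends removed, Bub3 passed as higher (0.26, adjusted p = 0.0187).

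**Figure D2:**
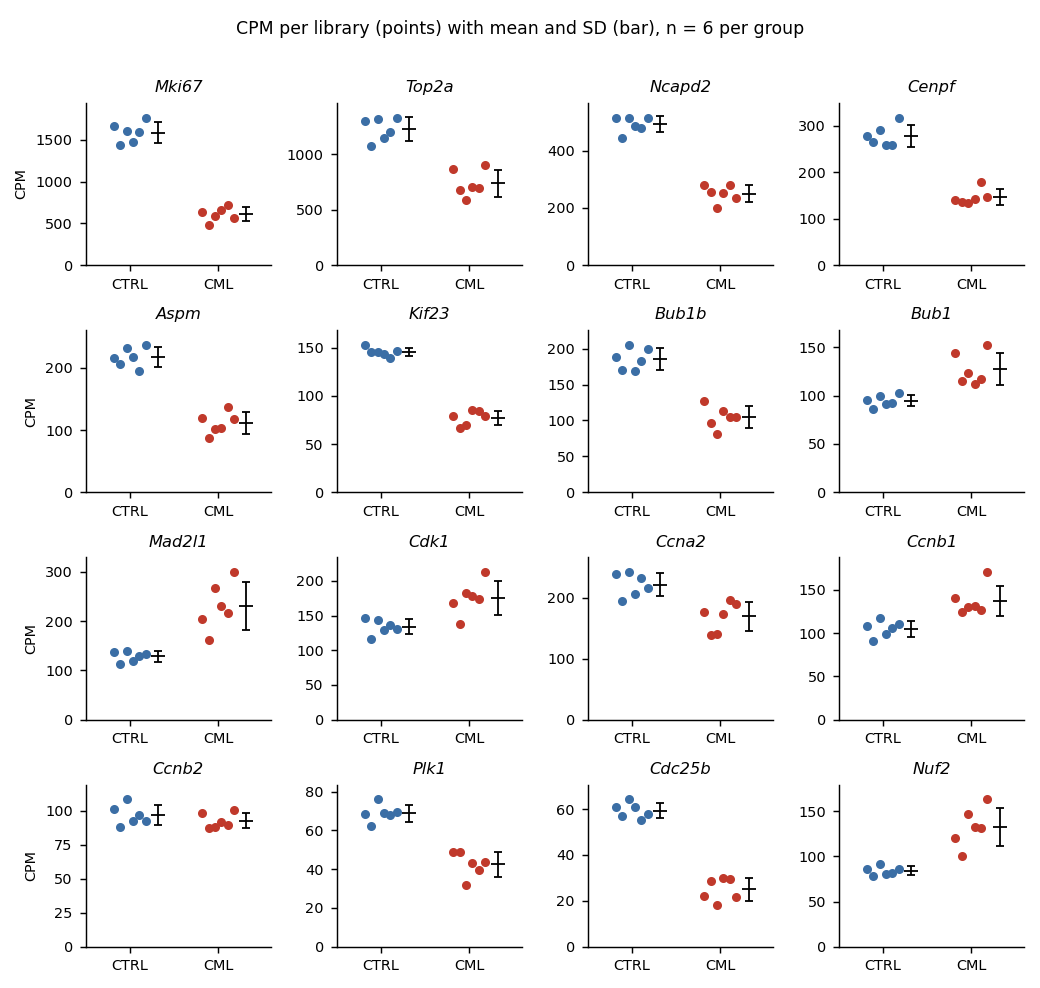
CPM of 16 of the genes in each library (points) with the mean and SD of the 6 libraries of a group beside them; each vertical axis starts at 0. Mki67, Top2a, Ncapd2, Cenpf, Aspm, Kif23, Bub1b, Plk1 and Cdc25b were lower in every CML library, Bub1, Mad2l1, Ccnb1 and Nuf2 higher in every one, and Ccnb2 overlapped.

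The kinetochore, the protein plate on each centromere, also held both directions, with 3 of 9 genes lower (33.3%), 2 higher (22.2%) and 4 not passing. Of all genes tested, 29.0% were lower and 30.6% higher, so these shares lay near the background. Nuf2, a subunit of the NDC80 complex that grips microtubules, stood at 78.2 to 92.15 CPM in CTRL (median 84.0) and 100.5 to 163 CPM in CML (median 132.5) and rose 1.57-fold, every CML library lying above CTRL (log2 fold change 0.65 ± 0.095 SE, adjusted p = 3.51e-05). Ndc80, the subunit it pairs with, stood at 62.6 to 75.0 CPM in CTRL (median 68.75) and 75.4 to 108 CPM in CML (median 81.6); it rose 1.23-fold, with CML 6 far above the others and the groups only just apart (log2 fold change 0.30 ± 0.084 SE, adjusted p = 0.00626). Spc24 and Spc25, the subunits at the other end of that complex, did not pass. Spc24 had the widest spread over CML of the 51 genes, at 49.6 to 63.5 CPM in CTRL (median 54.3) and 45.0 to 89.5 CPM in CML (median 65.1), with CML 2 below all CTRL libraries and CML 6 highest (log2 fold change 0.26 ± 0.13 SE, adjusted p = 0.0906). Without CML 2, Spc24 and Spc25 passed as higher (log2 fold changes 0.34 and 0.27, adjusted p = 0.00721 and 0.00744). Without CML 6, they were at 0.14 and 0.12 and did not pass (adjusted p = 0.258 and 0.34). With length and GC trends removed, they were at 0.28 and -0.057 and did not pass either (adjusted p = 0.0651 and 0.627).

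Of the large kinetochore proteins, Cenpf stood at 258 to 318 CPM in CTRL (median 271) and 134 to 180.2 CPM in CML (median 142), and it fell 1.89-fold without overlap, CML 5 lying above the other CML libraries (log2 fold change -0.92 ± 0.080 SE, adjusted p = 3.20e-07). CENP-F recruits dynein regulators to the kinetochore. Cenpe, the kinesin that carries chromosomes to the spindle equator, stood at 194.5 to 234 CPM in CTRL (median 200.2) and 119.9 to 142 CPM in CML (median 133), was among the least variable genes within CML, and fell 1.57-fold (log2 fold change -0.65 ± 0.064 SE, adjusted p = 9.16e-07). Kif2c, a kinesin that takes microtubules apart to correct wrong attachments, was lower in every CML library (log2 fold change -0.67 ± 0.084 SE, adjusted p = 8.34e-06). Cenpa, the histone H3 variant that defines the centromere, stood at 97.5 to 112 CPM in CTRL (median 108) and 91.3 to 125 CPM in CML (median 119.8) with CML 2 lowest and did not pass (log2 fold change 0.10 ± 0.078 SE, adjusted p = 0.287). It passed as higher with length and GC trends removed (0.27, adjusted p = 0.0260). Knl1, the platform on which the BUB proteins dock, had a log2 fold change of 0.00 with a standard error of 0.081 (adjusted p = 0.999).

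Most spindle and centrosome genes fell, 6 of 9, with 1 higher. Aspm, which focuses microtubules at the spindle poles, stood at 196 to 237 CPM in CTRL (median 217) and 86.8 to 138 CPM in CML (median 111); it fell 1.95-fold without overlap, CML 2 being the lowest (log2 fold change -0.97 ± 0.096 SE, adjusted p = 9.90e-07). Ckap5, a microtubule polymerase, stood at 325 to 376 CPM in CTRL (median 355) and 171.5 to 233.5 CPM in CML (median 213) with CML 3 lowest and fell 1.67-fold (log2 fold change -0.74 ± 0.075 SE, adjusted p = 1.12e-06). Kif11, the motor EG5 that pushes the poles apart, stood at 325 to 394 CPM in CTRL (median 371) and 211 to 324 CPM in CML (median 256.5). The groups were only just separated, CML 6 lying directly under CTRL 2, and Kif11 fell 1.38-fold (log2 fold change -0.46 ± 0.098 SE, adjusted p = 0.000917). Gtse1, a microtubule-stabilizing protein of G2 and M phase, was variable in CML, at 32.95 to 41.4 CPM in CTRL (median 36.8) and 16.9 to 30.8 CPM in CML (median 22.5), CML 2 lowest and CML 4 highest, and fell 1.57-fold (log2 fold change -0.65 ± 0.12 SE, adjusted p = 0.000378). Nusap1, which bundles microtubules, and Tpx2, the activator and spindle anchor of aurora A, fell by 0.66 and 0.62 on the log2 scale (adjusted p = 5.41e-06 and 2.26e-05).

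Plk4, the kinase that starts centriole duplication, was the only spindle or centrosome gene called higher, at 87.3 to 106 CPM in CTRL (median 102) and 99.0 to 135 CPM in CML (median 121). CML 2 lay among the CTRL libraries and CML 6 was highest, and the rise was 1.20-fold (log2 fold change 0.27 ± 0.074 SE, adjusted p = 0.00618); its call was lost when no filter on low counts was applied (adjusted p = 0.0715). Aurka, the aurora kinase of the poles, and Hmmr, a spindle assembly factor, did not pass (0.10 and -0.15 on the log2 scale, adjusted p = 0.361 and 0.147). Hmmr passed as lower with length and GC trends removed (-0.23, adjusted p = 0.0442).

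The chromosomal passenger complex, which corrects attachments and then moves to the central spindle, had 3 of 4 genes lower. Its kinase Aurkb stood at 87.5 to 111 CPM in CTRL (median 103) and 57.15 to 80.7 CPM in CML (median 76.8); it fell 1.42-fold without overlap, CML 3 and CML 4 being lowest (log2 fold change -0.50 ± 0.087 SE, adjusted p = 0.000181). The scaffold gene Incenp and the targeting subunit Cdca8 (borealin) fell as well (log2 fold change -0.52 ± 0.074 SE, adjusted p = 3.13e-05 and log2 fold change -0.64 ± 0.066 SE, adjusted p = 1.43e-06), and Incenp was at -0.21 with length and GC trends removed (adjusted p = 0.0442). Birc5, which encodes survivin, the centromere-binding subunit, did not pass (log2 fold change 0.15 ± 0.089 SE, adjusted p = 0.169).

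Midzone and cytokinesis genes fell in 5 of 7 cases and none rose. Kif23, the kinesin of the centralspindlin complex, stood at 139 to 153 CPM in CTRL (median 145) and 66.4 to 85.4 CPM in CML (median 78.65), and all CML libraries lay well under CTRL (1.89-fold lower, log2 fold change -0.92 ± 0.065 SE, adjusted p = 7.24e-08). Its partner Racgap1 fell as well (log2 fold change -0.42 ± 0.084 SE, adjusted p = 0.000576; -0.25 with length and GC trends removed, adjusted p = 0.0313). Prc1, which cross-links antiparallel midzone microtubules, and Kif4, the kinesin that Prc1 recruits, both fell by 0.65 on the log2 scale (adjusted p = 1.09e-06 and 1.13e-05). Kif20a, a kinesin that brings the passenger complex to the midzone, passed narrowly (log2 fold change -0.23 ± 0.091 SE, adjusted p = 0.0367). Its call was lost in 11 of 21 alternative settings, among them leaving out CML 3, 4 or 5 or CTRL 1, 3, 5 or 6, with adjusted p values up to 0.129, and its exons overlap those of Cdc23 on the opposite strand. Ect2, the exchange factor that turns on RhoA at the furrow, and the scaffold gene Anln did not pass (0.14 and 0.022, adjusted p = 0.122 and 0.807).

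The genes of APC/C control included 1 fall among 3 (33.3%, against 29.0% of all genes). Ube2c, the ubiquitin-conjugating enzyme of the APC/C, fell 1.64-fold without overlap (log2 fold change -0.72 ± 0.10 SE, adjusted p = 2.87e-05). Cdc20, its mitotic activator and the target of MAD2, stood at 86.35 to 103 CPM in CTRL (median 98.6) and 72.9 to 105 CPM in CML (median 92.95), CML 3 and CML 5 being lowest and CML 1 above every CTRL library, and did not pass (log2 fold change -0.10 ± 0.089 SE, adjusted p = 0.337). Cdc20 overlaps Elovl1 on the opposite strand in the annotation. Pttg1 (securin), the inhibitor of separase, was the least abundant of the 51 genes per kilobase (mean 4.22 CPM per kb in CTRL, 3.80 in CML) and did not pass (log2 fold change -0.15 ± 0.13 SE, adjusted p = 0.341). It passed as lower with length and GC trends removed (-0.44, adjusted p = 0.0271).

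**Figure D3:**
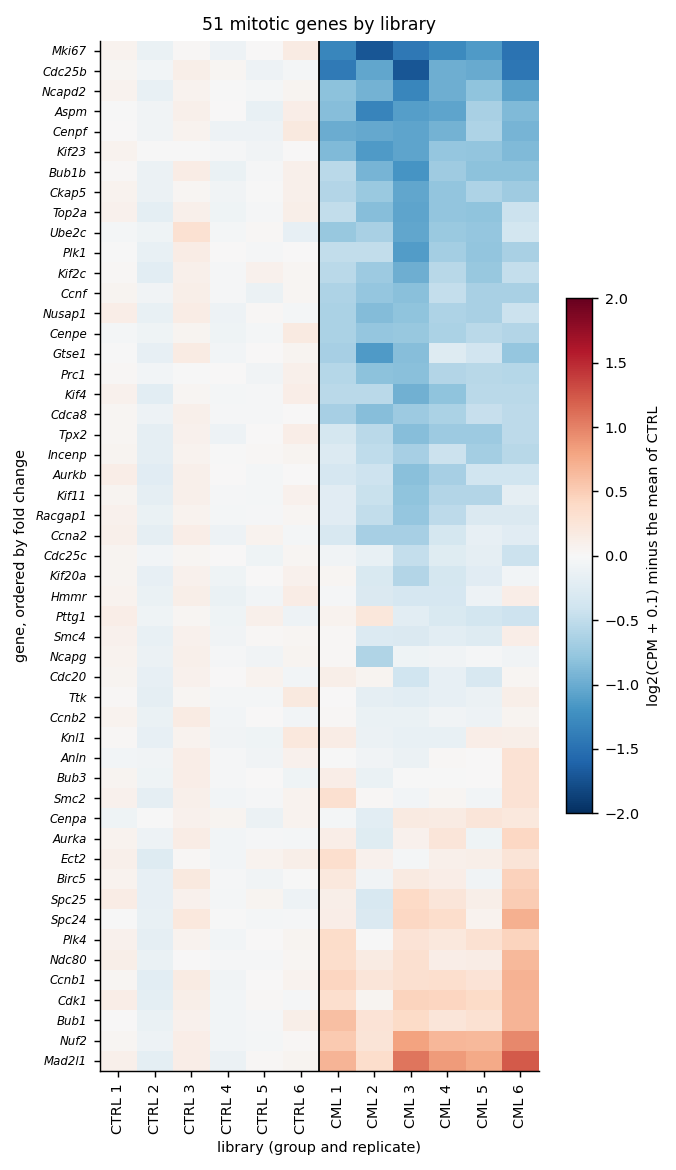
Log2(CPM + 0.1) of the 51 genes in each of the 12 libraries, relative to the mean of the CTRL libraries; rows are ordered by fold change, and blue is lower and red higher. The upper 27 rows hold the genes that fell, and CML 6 and CML 3 show the deepest red in the bottom rows of Mad2l1 and Nuf2.

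Genes whose products work side by side did not all move together. The pairs that follow were picked after their values had been seen and carry no test. The log2 difference Bub1 minus Bub1b lay between -1.04 and -0.89 in CTRL libraries and between -0.008 and 0.60 in CML libraries, a shift upward in every CML library. Ccnb1 minus Ccna2 lay between -1.14 and -0.97 in CTRL and between -0.63 and -0.10 in CML. Cdk1 minus Cdc25b lay between 1.03 and 1.30 in CTRL and between 2.26 and 3.33 in CML. In each of these pairs the difference was larger in every CML library than in any CTRL library. For Bub1 and Bub1b this was fixed beforehand, since Bub1 rose and Bub1b fell without overlap. In the passenger complex, Birc5 minus Cdca8 ran from -0.55 to -0.40 in CTRL and from -0.097 to 0.50 in CML, and in condensin, Smc2 minus Ncapd2 ran from -0.77 to -0.69 and from 0.020 to 0.63. For the chromosome genes, Mki67 minus Top2a ran from 0.28 to 0.42 in CTRL and from -0.68 to 0.042 in CML. These differences are of counts and not of amounts per length, so they are read between the groups and not between the genes. They also hold the trends of length and GC. With these removed, the log2 fold changes of Smc2 and Ncapd2 were -0.038 and -0.57, against 0.10 and -0.98 before. Those of Bub1 and Bub1b were 0.24 and -0.71, against 0.42 and -0.83 before.

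Variation among libraries was larger in CML for most of these genes. The SD of log2 CPM of a gene over 6 libraries had a median of 0.10 in CTRL and 0.18 in CML over the 51 genes, and of 0.14 and 0.30 over all genes, and it was higher in CML for 48 of the 51. The exceptions were Ccnb2, Cenpe and Ect2. Over the 1275 pairs of the 51 genes, the median Pearson correlation across the libraries of a group was 0.73 in CTRL and 0.45 in CML. This is a description over 6 libraries that share their scaling, and it was not tested.

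Transcript length moved with fold change across the whole data set. Over 17803 genes the Spearman correlation of the log2 fold change with exonic length was -0.35 and with GC content -0.28, and over the 51 genes -0.20 and -0.39. All genes were put into 5 bins of equal size by length, and of the 51 genes 0 lay in the shortest bin and 17 in the longest. In bins 2 to 5 the median log2 fold change of all genes was 0.24, 0.032, -0.14 and -0.27, and that of the 51 genes -0.13, -0.45, -0.15 and -0.65. With the trends of length and GC removed from every library, 31 of the 51 genes were lower and 9 higher, with a median of -0.28. Of all 17803 genes in that fit, 4108 were lower and 4827 higher, which is the background for every count with trends removed. Mad2l1 then had a log2 fold change of 0.83 (adjusted p = 5.13e-05), Ccnb1 0.30 (0.00700) and Bub1 0.24 (0.0197). The log2 fold changes of 5 of the 34 called genes were over 1.5 times smaller after this removal, those of Bub1, Ccnf, Incenp, Ncapd2 and Racgap1, and Kif20a lost its call.

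**Figure D4:**
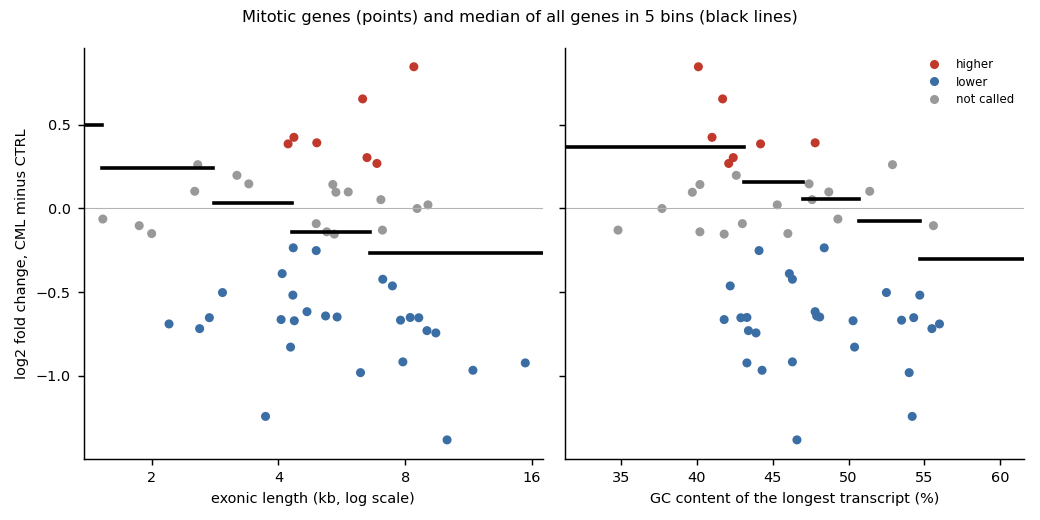
Log2 fold change (CML minus CTRL) of the 51 genes against exonic length in kb (left, log axis) and GC content of the longest transcript in % (right); red points were called higher, blue lower, grey neither, and black lines give the median of all genes in each of 5 bins. In the longest bin the 17 genes have a median of -0.65, where all genes of that length have -0.27.

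The 113 other mitotic genes examined held 53 that fell (46.9%) and 25 that rose (22.1%), with a median log2 fold change of -0.17. With length and GC trends removed 44 fell and 25 rose. Their mean log2 CPM lay between 5.98 and 6.15 in CTRL and between 5.80 and 6.03 in CML, so the groups overlapped. Among kinesins and spindle proteins 12 of 18 fell and 2 rose: Kif18b, a kinesin that shortens microtubules, fell by 1.17 on the log2 scale (adjusted p = 1.71e-08), Numa1, which anchors the poles, by 0.98 (1.71e-08, but -0.43 with trends removed) and Kifc1, a minus-end kinesin, by 0.92 (1.25e-07), while Kif18a rose by 0.44 (3.87e-05). Of 14 cohesin and condensin genes, 11 fell and none rose, led by the cohesin arms Smc1a (-1.08, adjusted p = 1.03e-07) and Smc3 (-0.64, 9.49e-07). Of 13 regulators of the APC/C and CDK1, 6 fell, 3 rose and 4 did not pass. Those that fell included the CDK1 inhibitor kinase Wee1 (-0.79, adjusted p = 1.37e-07), separase Espl1 (-1.06, 2.44e-07) and the late APC/C activator Fzr1 (-0.90, 9.01e-07); with trends removed Espl1 was at -0.48 and Fzr1 at -0.41.

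Cks2 and Cks1b, which bind cyclin-dependent kinases, were among the 3 regulators that rose (log2 fold changes 0.78 and 0.48, adjusted p = 5.29e-05 and 0.000894), but both calls were lost with trends removed (0.29 and 0.16, adjusted p = 0.0721 and 0.221). Of 14 APC/C subunit genes 5 rose and 5 fell, and with trends removed 7 rose and 1 fell; Anapc10, a substrate receptor, rose by 0.99 (8.29e-07). Of 33 further kinetochore genes 11 rose (33.3%) and 10 fell (30.3%), near the shares of all genes tested (30.6% and 29.0%), among them the inner kinetochore genes Cenpw (0.90, adjusted p = 4.56e-05) and Cenpq (0.82, 1.20e-06; 0.52 with trends removed) upward and Cenpt (-0.99, 3.89e-07) downward. In the augmin complex, which branches spindle microtubules, 4 of 8 genes rose and 2 fell (3 and 1 with trends removed). Foxm1, a transcription factor that activates late cell cycle genes, stood at 98.1 to 108.5 CPM in CTRL (median 102.5) and 29.2 to 56.2 CPM in CML (median 42.4), without overlap, and fell (log2 fold change -1.24 ± 0.13 SE, adjusted p = 1.27e-06; -0.83 with trends removed). Mybl2, which encodes B-MYB, had a log2 fold change of -0.029 (adjusted p = 0.773).

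Genes of S phase, examined beside them, moved in both directions: of 38, 15 rose and 18 fell, with a median log2 fold change of -0.034. With length and GC trends removed, 14 rose and 9 fell, with a median of 0.038. Cyclin E1 (Ccne1, 0.89, adjusted p = 3.25e-06) and the clamp loader subunits Rfc4 (0.98, 2.14e-06) and Rfc3 (0.71, 3.86e-06) rose, and the polymerase delta gene Pold1 (-0.78, 6.39e-07), the licensing factor Cdt1 (-0.64, 1.42e-06) and Uhrf1, which keeps DNA methylation through replication (-0.72, 1.09e-06), fell. With trends removed Rfc4 was at 0.50, Cdt1 at -0.35 and Uhrf1 at -0.46, and the call of Pold1 was lost (-0.23, adjusted p = 0.0893). The mean log2 CPM of the S phase genes lay between 6.60 and 6.82 in CTRL and between 6.56 and 6.87 in CML, so the groups overlapped. The difference between the mitotic and the S phase genes was not tested.

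**Figure D5:**
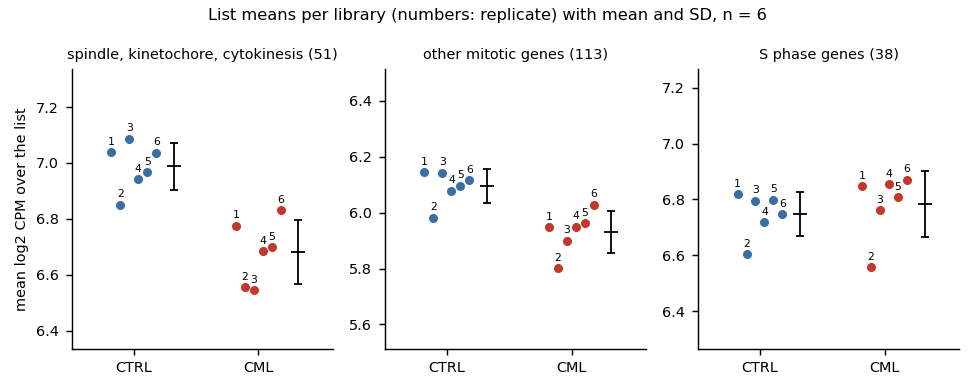
Mean log2 CPM per library over the 51 genes, the 113 other mitotic genes and the 38 S phase genes, with the mean and SD of each group of 6 and the replicate number beside each point; each axis spans 1 log2 unit. CML libraries lie between 6.54 and 6.83 for the 51 genes, under all CTRL libraries (lowest 6.85). The groups overlap for the 113 other mitotic genes and for S phase.

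Markers of the gate and of other cell types differed between the groups, and their part in the results above was not tested. Of all genes tested, 30.6% rose and 29.0% fell, which is the background for the marker counts. The shares of monocyte and macrophage markers that rose and of B cell markers that fell (25.0% each) lay below it. Of 6 gate and stem cell genes 4 fell and 1 rose. Kit lay at 681 to 800.0 CPM in CTRL and at 323 to 522 CPM in CML and fell (log2 fold change -0.86, adjusted p = 4.68e-06), as did Cd34, Flt3 and Slamf1, while Ptprc (CD45) rose (0.27, adjusted p = 0.00274) and Ly6a (Sca-1) did not pass (0.38, adjusted p = 0.0660). All 5 granulocyte progenitor markers rose, with a summed CPM of 1888 to 2579 in CTRL and 3253 to 9003 in CML. Of 8 mast cell and basophil markers 5 rose and 1 fell (summed CPM 294.0 to 396 in CTRL and 461 to 2422 in CML, CML 2 highest), and all 5 megakaryocyte markers tested fell (276 to 322 in CTRL and 90.6 to 252 in CML; 3 fell with trends removed). Of 8 erythroid markers 5 fell, yet their summed CPM was higher in CML (180.2 to 231 and 290.5 to 674), most of it from Tfrc, the transferrin receptor gene and the only one that rose. Of 8 neutrophil markers 5 fell, or 3 without CML 2 and CML 4 (111 to 2417 and 76.0 to 368). Of 8 monocyte and macrophage markers 2 rose and none fell (165 to 217 and 338 to 679), and without CML 2 and CML 4, 2 rose and 4 fell. Of 8 B cell markers 2 fell (33.0 to 133 and 26.3 to 105), or 6 without CML 2 and CML 4, and of 5 T and NK cell markers tested 2 fell and 1 rose (5.85 to 9.69 and 2.21 to 5.72), or 3 and none without these libraries. Of 8 stromal markers tested 4 rose and none fell (173 to 241 and 176 to 1019, CML 2 highest), but without CML 2 and CML 4 none rose and 4 fell. Sums in parentheses are of CPM over each whole list, untested genes included, in CTRL and then in CML. None of these markers was at 0 in all libraries. Without CML 2 and CML 4, 26 of the 51 genes were lower and 9 higher. Of the 18438 genes, 6012 were then lower and 5927 higher, the background for every count without these libraries. Mitochondrially encoded genes took 0.816% to 1.29% of counts in CTRL and 2.26% to 2.97% in CML, and without them the 51 genes gave 27 lower and 7 higher. By library number, replicates 1 to 5 of each group form separate runs of numbers, and only the replicates numbered 6 stand outside them. Between CML 6 and CTRL 6, all 34 called genes had the direction of the call. Both libraries were part of the fit that made the calls. For the 24 fallen and 5 risen genes without overlap, the direction in this pair was fixed beforehand, so this is no separate check. Total counts were 22804754 to 41832868 in CTRL and 16150817 to 25070105 in CML.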

How the data were processed

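RNA was sequenced from 12 libraries (6 CTRL, 6 CML) made with the Kapa RNA HyperPrep kit. The authors deposited raw counts per mouse Ensembl gene for each library, without normalization. The sources differ on how these were made: the submitters' processing notes list FastQC 0.11.9, fastp 0.23.2, STAR 2.7.10a and featureCounts 2.0.1 with GRCm39, whereas the study's methods name Trim Galore!, HISAT2 and featureCounts with a human build for bulk RNA-seq. Neither the annotation nor the use of strand, nor how multimapping reads were handled, is given in the sources used here. Without strand, reads of overlapping genes on opposite strands cannot be told apart, and multimapping decides how pseudogenes share counts.

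Symbols were matched by identifier to GENCODE M21, and 52073 identifiers matched. M21 also gave exon lengths, GC content and overlaps. Its build (GRCm38) differs from that of the notes, so no coordinates are given for counts. Promoter windows and their coordinates are from RefSeq (GRCm38.p6). 0 entries named no gene.

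The 51 genes and the other lists were chosen with earlier results of these data known. Groups and replicate numbers came from sample titles. edgeR 4.0.16 (R 4.3.3; TMM factors, filterByExpr, quasi-likelihood test, group as the only term) was fitted to all 12 libraries and 18438 genes, with Benjamini-Hochberg adjustment over all of them and a threshold of 0.05. Log2 CPM used a prior count of 2. Depth was 16150817 to 41832868 counts per library, and the lowest count of any of the 51 genes was 119. The share of counting noise in the spread of each gene was not measured. No pair of libraries agreed within sampling noise (lowest chi-square per degree of freedom within a group 3.78). Fits were tested on simulated data. Genes shown with their ranges were a fixed set of 10, up to 8 called genes with the largest change each way, and the 3 least and the 3 most variable over CML. Outside the 51, up to 3 genes per list and direction with the smallest adjusted p were named, and Mybl2, Ly6a, Ptprc and Kit were added as the B-MYB and gate genes. Cd34, Flt3, Slamf1 and Tfrc were named after their values had been seen. 1 listed mitotic gene, Lin54, matched no identifier. Alternatives were DESeq2 1.42.0, RLE and upper-quartile factors, no filter, a replicate block, a threshold of 0.01, and leaving out libraries or mitochondrially encoded genes. The removal of length and GC trends and leaving out CML 2 and CML 4 were chosen after the data were seen. Plots used Python 3.11.15 and matplotlib 3.10.9.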

Additional observations from a re-analysis of the deposited data

Results flagged for a closer look

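4 of 58 sets of 6 libraries held a library whose gap to its nearest neighbour was wider than Dixon's 95% limit for 6 samples allows, as a share of their range. Chance gives about 1 in 20, or 2.9 of 58. Ccnb1, cyclin B1, reached 170.7 CPM in CML 6, where the next CML library had 141 CPM. Cenpf was at 180.2 CPM in CML 5 against 146 CPM in the next CML library. Spc24 was at 63.5 CPM in CTRL 3, with 54.6 CPM next in CTRL. The mean log2 CPM of the 38 S phase genes was 6.56 in CML 2, under 6.76 in the next lowest CML library. CML 6 was also the highest CML library for 22 of the 51 genes, and CML 2 had the highest stromal marker sum of all libraries; whether these bear on the values was not tested.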

How the results depend on the processing

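Among the 51 genes, 31 of the 34 calls held in all 21 alternative settings, and no direction was reversed with a call. Of 1071 values of a gene in a setting, 1040 stayed on their side of the threshold, 17 moved past it and 14 fell back. With upper-quartile factors, 11 genes instead of 7 were higher and 25 instead of 27 lower, and the median log2 fold change of all genes rose by 0.074. Leaving out each library in turn gave 7 to 9 higher, 26 to 29 lower and a median of the 51 genes from -0.30 to -0.21, with 9 higher without CML 2. For the 113 other mitotic genes the same ranges were 23 to 27 higher and 48 to 54 lower. DESeq2 gave 7 higher and 27 lower. The calls that were lost in some setting were those of Kif20a, Cdc25c and Plk4, and 11 genes gained one. With length and GC trends removed, Ccnb2, Pttg1 and Ncapg passed as lower and Bub3 and Cenpa as higher. Birc5 and Ect2 passed as higher with upper-quartile factors. Hmmr and Smc4 passed as lower with trends removed or without CML 6, and Spc24 and Spc25 as higher in 3 settings each. The cause was not tested.

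Libraries of the same replicate number did not deviate together: deviations of the same number in both groups correlated at -0.13 to 0.068, and 1 of 6 numbers correlated best with its own. Whether samples of the same number were handled together cannot be read from this. With the replicate number as a block, the calls were 7 higher and 27 lower with a median of -0.26, and none of the 34 calls was lost.

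The 51 genes had at least 119 counts in every library. With 6 libraries a group and a biological coefficient of variation of 32.6% in CML and 10.8% in CTRL, the smallest log2 fold change that passed was that of Kif20a (-0.23). Sex as labelled and group cannot be told apart in any library, and library number and group cannot be told apart outside the replicates numbered 6.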
